A study of Rattus norvegicus with 8 samples.

Results

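The genes described here encode chromatin-modifying enzymes, the proteins that add or remove acetyl and methyl groups on histones and DNA. They were taken by symbol from the array annotation (the Hdac, Sirt, Kat, Kmt, Setd, Ezh, Suv39h, Ehmt, Kdm, Prmt, Dnmt and Tet families). The symbol rule used no measured value, but it was chosen with earlier results of these data known. It gave 62 genes of the 14506 genes that had a probe set of their own. Each was represented by its brightest probe set, a probe set being the group of short probes on the array that reads 1 transcript. The cells were primary ventricular cardiomyocytes of newborn rats in culture dishes, and all of them had been transfected with a synthetic RNA by lipofection. The labels give no strain. In the control group (4 arrays) it was a scrambled microRNA precursor and in the miR-222 group (4 arrays) a miR-222 precursor, each at 0.4 µM for 48 h before RNA extraction. Any effect of the scrambled RNA itself enters the comparison too, and short-term cardiac cultures can hold other heart cells besides cardiomyocytes.

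Acetyl groups placed on histone tails by acetyltransferases open chromatin, and histone deacetylases and sirtuins take them off. Methyl groups on lysine and arginine are placed by methyltransferases and removed, from lysine, by demethylases, and they mark active or silent genes depending on the residue. DNA methylation is copied after replication by Dnmt1 and set anew by Dnmt3a and Dnmt3b. In heart muscle the class IIa deacetylases are known as brakes on growth that act on MEF2 factors, and Ezh2, the methyltransferase of Polycomb, is known for its role in cardiac development.

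A microRNA recognises messenger RNAs mainly through its seed, bases 2 to 8 from the 5′ end. The mature rat sequences of miR-222 are shown because the miR-222 group received a precursor of this microRNA, whose own sequence was not available here. They come from RefSeq (build GRCr8), with the seed in capitals. rno-miR-222-3p, the main product, lies at chrX:6022682-6022702 on the plus strand, and rno-miR-222-5p at chrX:6022642-6022662. The neighbouring rno-miR-221-3p, at chrX:6023246-6023268, has the same seed, and these were the 2 of 724 mature entries that shared it.
rno-miR-222-3p: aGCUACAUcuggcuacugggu
rno-miR-222-5p: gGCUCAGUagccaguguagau
rno-miR-221-3p: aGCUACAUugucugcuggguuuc
Target sites of this seed in the transcripts of the 62 genes were not searched here.

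The array intensities had medians of 202 to 219 per array, and arrays correlated at 0.989 to 0.993 within groups and 0.983 to 0.989 between them. Among the 46 enzyme genes not past the threshold, miR-222 replicate 3 was the array of its group farthest from the control mean in 22. All 7 cardiomyocyte markers (such as Myh6, Tnnt2 and Ryr2) read at least 12.13 log2 units in every array, against array medians of 7.66 to 7.77, and their summed intensity was 63709 to 65031 in control and 60677 to 61840 in miR-222 arrays. Of these markers Ryr2 fell by 0.14, a call lost when most single arrays were left out. All 7 had negative differences (-0.14 to -0.01), and 0 to 4 of them were called lower under alternative settings that kept all arrays. Separate cultures are not named in the labels, so the p-values reflect the spread among these 8 samples, and that spread may be technical. Replicate numbers here follow the order of the deposited samples and only name an array. With 4 arrays a group, the number of arrays limits the precision. Differences are given on the log2 scale as miR-222 minus control, each with its standard error (SE) from limma and a p adjusted over all probe sets, with n = 4 in each group.

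Between control and miR-222, 16 of the 62 chromatin enzyme genes changed at an adjusted p under 0.05, 9 higher and 7 lower. This share of 25.8% lay close to the 24.7% of all genes that passed, and so did the shares in each direction, 14.5% higher against 11.7% of all genes and 11.3% lower against 13.0%. The largest fall was that of Dnmt1, the maintenance DNA methyltransferase, at -0.84 (SE 0.07), followed by Sirt6 at -0.51 (SE 0.05). The largest rises were those of Ezh1, a methyltransferase of Polycomb, at 0.36 (SE 0.06) and of the lysine methyltransferase gene Setd7 at 0.32 (SE 0.04). The changes were small, with a median size of 0.27 among the 16 against 0.32 among all changed genes. Dnmt1 was the only called member that moved by at least 1.5-fold (1.61% of the members). Of all genes, 3.62% were called and moved by at least 1.5-fold. Over all 62 members the median change was 0.03, and over all genes 0.01. The groups did not overlap in 28 members, 45.2%, where 33.3% of all genes did so. Of the 7 lower members, 4 kept their call when control replicate 1, 2 or 3 or miR-222 replicate 1 was left out.

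**Figure D1:**
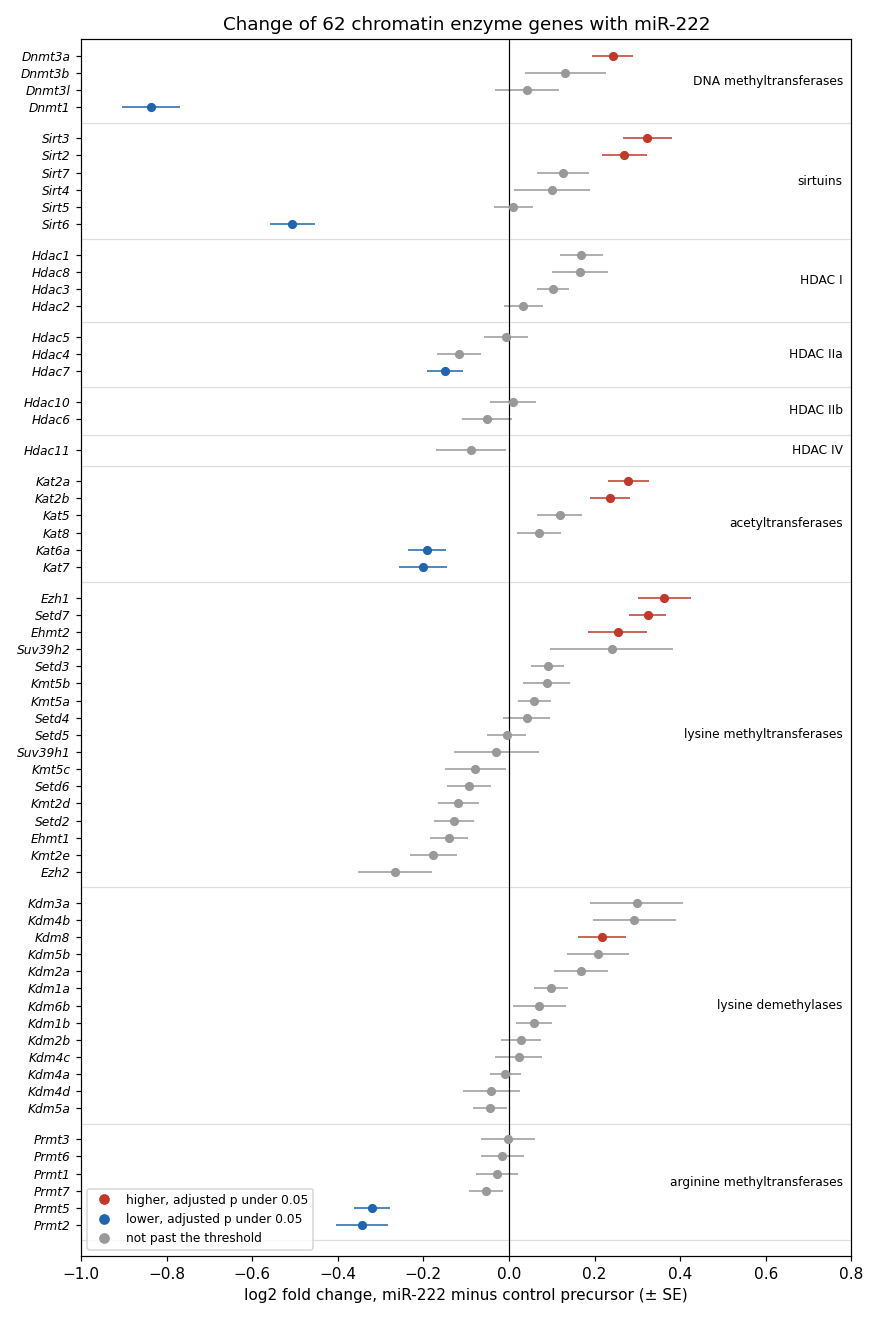
Log2 fold change of each of the 62 genes, miR-222 minus control, by enzyme class, with bars of 1 SE (limma, n = 4 arrays a group). Red points passed an adjusted p of 0.05 as higher, blue points as lower and grey points did not pass; Dnmt1 at -0.84 lies farthest from 0, and most points lie between -0.3 and 0.3.

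Of 4 DNA methyltransferase genes 1 fell, 1 rose and 2 did not pass. Dnmt1, which restores methylation on newly copied DNA, read 10.33, 10.29, 10.40 and 10.30 log2 units in the control arrays and 9.48, 9.57, 9.33 and 9.61 in the miR-222 arrays. Every miR-222 array was thus lower than every control array, by a fall of 1.79-fold in the mean (limma adjusted p = 1.68e-04). Dnmt3a, which sets methylation de novo, read 9.84, 9.93, 9.92 and 9.88 in control and 10.09, 10.16, 10.22 and 10.07 with miR-222. The groups did not overlap, and Dnmt3a rose by 0.24 (SE 0.05, limma adjusted p = 0.00984). Both calls held under each of the 16 alternative settings tried. Dnmt3b, the other de novo enzyme, gave 0.13 (SE 0.10) and did not pass (limma adjusted p = 0.406), with miR-222 arrays from 7.22 to 7.64 across the control range of 7.11 to 7.35. Dnmt3l, a cofactor without catalytic activity of its own, gave 0.04 (SE 0.08) and did not pass, at levels below the array medians (6.12 to 6.41 log2 units over all arrays).

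Genes for proteins that work beside Dnmt1, chosen after their values were seen, were also lower. Uhrf1, which brings Dnmt1 to half-methylated DNA, fell by 0.77 (SE 0.12, limma adjusted p = 0.00354), from 8.33 to 8.81 log2 units in control to 7.48 to 7.86 with miR-222. Hells, a chromatin remodeller needed for DNA methylation, fell by 0.53 (SE 0.09, limma adjusted p = 0.00374), at levels of 5.84 to 6.62 log2 units that lay below the array medians, where a difference is less reliable. Dividing cells are known to raise Dnmt1 and Uhrf1 in S phase, so the genes of DNA replication were read beside them. Of 21 such genes measured, 16 were lower and 5 did not pass, with a list median of -0.49. The helicase subunit genes Mcm2 and Mcm6 fell by 0.70 and 0.94, and the cyclin gene Ccne2 fell by 1.18. The median of these genes relative to the control mean was -0.07 to 0.12 in the control arrays and -0.71 to -0.36 in the miR-222 arrays, lowest in replicate 3, which was also the lowest for Dnmt1. Without that array Dnmt1 stood at -0.78 (limma adjusted p = 2.32e-04) and 15 replication genes were lower. The part of cell division in the fall of Dnmt1 was not tested.

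**Figure D2:**
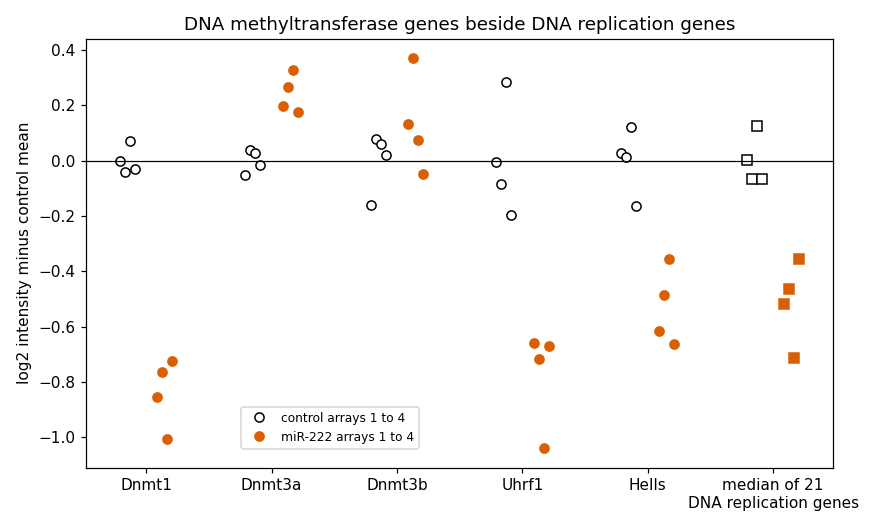
Log2 intensity of each array minus the control mean for 3 DNA methyltransferase genes, for Uhrf1 and Hells and, as squares, the median of 21 DNA replication genes (open, 4 control arrays; filled, 4 miR-222 arrays). Dnmt1, Uhrf1 and Hells lie below every control array with miR-222, Dnmt3a lies above, and Dnmt3b overlaps.

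Ezh2, Suv39h1, Suv39h2 and Kmt5a, also known to be expressed in dividing cells, did not pass. Ezh2, the Polycomb methyltransferase of growing cells, read 10.47, 10.40, 10.49 and 10.27 log2 units in control and 10.25, 10.18, 9.91 and 10.23 with miR-222. The groups did not overlap, but the difference of -0.27 (SE 0.09, limma adjusted p = 0.0708) rested in part on miR-222 replicate 3. It was -0.19 without that array (limma adjusted p = 0.0940), and the adjusted p reached 0.160 when another array was left out. Ezh2 passed as lower under 3 alternatives that kept all arrays (limma adjusted p down to 0.0278). Suv39h1, of constitutive heterochromatin, gave -0.03 (SE 0.10) and was 0.07 without miR-222 replicate 3, whereas its relative Suv39h2 gave 0.24 (SE 0.14) with control arrays spread from 7.77 to 8.41. The second, dimmer probe set of Suv39h1 gave -0.11 (SE 0.16). Kmt5a, which methylates histone H4, gave 0.06 (SE 0.04). RefSeq lists near-copies of it under the symbols Kmt5al1, Kmt5al2 and Kmt5al3, so its reading may be shared with them.

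Promoters were read for the letters TTTCCCGC, TTTGGCGC, TTTCGCGC and TTTGCCGC, the forms bound by E2F factors of the cell cycle, on both strands of the window from 250 bases before to 50 after the start of each gene (RefSeq, GRCr8). Overlap with other motifs was not examined. Of 50 members with a promoter in the table, 5 held a match (10.0%): Dnmt1, Ezh2, Kdm1a, Kmt5c and Sirt5. Among the 21851 protein-coding promoters of this length 2.74% held one, and 2.95% of the 19005 genes. Among 17 genes of the replication list 9 held a match (52.9%). Of the 5 enzyme genes Dnmt1 alone was past the threshold, and a match describes letters in a window, not a bound site. Among members with a promoter in the table, 1 of 5 lower, 0 of 6 higher and 4 of 39 not past the threshold held a match. Any part of E2F factors in these values was not tested. The windows of Dnmt1, Ezh2 and Dnmt3a are shown as examples. Those of Dnmt1 and Ezh2 carry matches (in capitals) at bases 26 and 10 after the start, and that of Dnmt3a has none.
Dnmt1, chr8:27762792-27763091, minus strand: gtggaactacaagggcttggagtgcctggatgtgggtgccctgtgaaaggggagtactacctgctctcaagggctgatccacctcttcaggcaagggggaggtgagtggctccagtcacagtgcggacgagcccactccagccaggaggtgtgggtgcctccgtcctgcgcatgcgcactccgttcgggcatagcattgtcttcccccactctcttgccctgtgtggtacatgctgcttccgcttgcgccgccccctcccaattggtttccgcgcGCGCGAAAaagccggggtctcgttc
Ezh2, chr4:77687134-77687433, minus strand: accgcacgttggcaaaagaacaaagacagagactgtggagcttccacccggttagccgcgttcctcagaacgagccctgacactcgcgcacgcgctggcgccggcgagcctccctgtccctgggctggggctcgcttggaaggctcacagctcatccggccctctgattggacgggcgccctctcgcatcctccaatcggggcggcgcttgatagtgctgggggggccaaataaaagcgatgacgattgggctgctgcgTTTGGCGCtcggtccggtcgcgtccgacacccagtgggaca
Dnmt3a, chr6:32598352-32598651, plus strand: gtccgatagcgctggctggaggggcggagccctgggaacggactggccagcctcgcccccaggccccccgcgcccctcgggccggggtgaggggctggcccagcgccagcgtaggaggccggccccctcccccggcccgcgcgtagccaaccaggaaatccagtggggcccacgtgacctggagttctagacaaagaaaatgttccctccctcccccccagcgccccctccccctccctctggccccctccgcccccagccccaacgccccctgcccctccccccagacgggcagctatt
The median ratio of observed to expected CG was 0.81 in the 50 members, taking the higher value where a gene has several starts, and 0.56 over all genes.

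The sirtuins, deacylases that use NAD, showed the second largest fall among the members and 2 rises. Sirt6, a nuclear sirtuin that acts on histone H3 and on telomeric chromatin, read 10.48, 10.45, 10.42 and 10.39 log2 units in control and 9.93, 9.89, 10.05 and 9.85 with miR-222. Each miR-222 array lay below each control array, and Sirt6 fell by 0.51 (SE 0.05, limma adjusted p = 4.78e-04), which is 1.42-fold. Sirt3, the main deacetylase of mitochondria, read 8.85, 8.90, 8.97 and 8.74 in control and 9.20, 9.22, 9.22 and 9.12 with miR-222, a rise of 0.32 (SE 0.06, limma adjusted p = 0.00567). Sirt2, found mainly in the cytoplasm, read 11.14, 11.16, 11.06 and 11.16 in control and 11.44, 11.32, 11.49 and 11.35 with miR-222, and rose by 0.27 (SE 0.05, limma adjusted p = 0.00817). Neither of these pairs of groups overlapped, and all 3 calls held under each of the 16 alternatives. The other mitochondrial sirtuin genes Sirt4 and Sirt5 and the nucleolar Sirt7 gave 0.10, 0.01 and 0.13 and did not pass. Sirt5 read 10.80 to 10.89 in control and 10.82 to 10.95 with miR-222. The high reading of Sirt4 in the miR-222 group, 8.47 log2 units, belonged to replicate 3.

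The classical histone deacetylases showed 1 call among 10 genes. Hdac7, a class IIa enzyme, read 7.98, 8.01, 7.97 and 7.94 log2 units in control and 7.79, 7.81, 7.80 and 7.91 with miR-222, and fell by 0.15 (SE 0.04, limma adjusted p = 0.0445). The groups did not overlap, but the call was lost without any single array except miR-222 replicate 4 (limma adjusted p up to 0.116), after median centring (limma adjusted p = 0.0676) and with trend and robust options (limma adjusted p = 0.123). Hdac7 is known to be abundant in endothelium, whose 6 measured markers summed to 1616 to 1733 intensity units in control and 1053 to 1151 with miR-222. In that list Kdr fell (-1.51), and the other 5 markers did not pass and summed to 788 to 833 in control and 762 to 832 with miR-222. No marker was at 0, but the group means of these 5, 7.12 to 7.63 log2 units, lay below the array medians of 7.66 to 7.77. A difference is less reliable there. The part of endothelial cells in the Hdac7 value was not tested, and in bulk RNA fewer cells of a type cannot be told apart from less RNA per cell.

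The other class IIa genes were Hdac5 at -0.01 (SE 0.05), with 10.21 to 10.28 log2 units in control and 10.15 to 10.30 with miR-222, and Hdac4 at -0.12 (SE 0.05, limma adjusted p = 0.173). Neither passed, and Hdac5 turned to small positive values under quantile normalization and without some single arrays. All 4 class I genes had positive differences of 0.03 to 0.17, and none passed. Hdac2, a catalytic subunit of the main nuclear corepressor complexes, read 11.32 to 11.42 in control and 11.36 to 11.48 with miR-222. Hdac1, its close relative, lay just outside the threshold at 0.17 (SE 0.05, limma adjusted p = 0.0525). A second, dimmer probe set of Hdac1 gave 0.18 (SE 0.05) and passed (limma adjusted p = 0.0253). The brighter probe set also passed as higher under 6 alternatives such as quantile normalization and array weights (limma adjusted p down to 0.0174), and without miR-222 replicate 2, but not after median centring (limma adjusted p = 0.201). In both probe sets every miR-222 array lay above every control array. Hdac3, the deacetylase of the NCoR complexes, gave 0.10 (SE 0.04, limma adjusted p = 0.102) without overlap of the groups, and Hdac8 gave 0.17 with 1 high control array. Hdac3 passed as higher under 2 alternatives (limma adjusted p down to 0.0244). Hdac8 passed as higher only without its high array, control replicate 3 (0.23, limma adjusted p = 0.0167). Hdac6, mainly a tubulin deacetylase, Hdac10 and Hdac11 gave -0.05, 0.01 and -0.09 and did not pass.

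Of 6 histone acetyltransferase genes, 2 rose and 2 fell. The GNAT family pair, catalytic subunits of the SAGA and ATAC coactivators, was higher. Kat2a (GCN5) read 8.81, 8.86, 8.92 and 8.74 log2 units in control and 9.09, 9.10, 9.16 and 9.09 with miR-222, at 0.28 (SE 0.05, limma adjusted p = 0.00527). Kat2b (PCAF) read 10.82, 10.70, 10.75 and 10.74 in control and 11.07, 10.98, 10.97 and 10.94 with miR-222, at 0.24 (SE 0.05, limma adjusted p = 0.00914). The groups of both genes stayed apart, and both calls held in all 16 alternatives.

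In the MYST family 2 genes fell and 2 did not pass. Kat6a (MOZ) read 10.19, 10.16, 10.18 and 10.13 log2 units in control and 9.96, 10.03, 9.89 and 10.02 with miR-222, and fell by 0.19 (SE 0.04, limma adjusted p = 0.0198). Kat7 (HBO1), known to license replication origins, read 10.75, 10.72, 10.77 and 10.71 in control and 10.59, 10.46, 10.45 and 10.66 with miR-222, and fell by 0.20 (SE 0.06, limma adjusted p = 0.0426). These were weak calls. The Kat6a call was lost when control replicate 1, control replicate 2, control replicate 3 or miR-222 replicate 1 was left out (limma adjusted p up to 0.0627), and that of Kat7 without any single array except miR-222 replicate 4 (up to 0.102) and under quantile normalization, median centring or array weights. The other MYST genes, Kat5 (TIP60) at 0.12 (SE 0.05) and Kat8 (MOF) at 0.07 (SE 0.05), did not pass. Kat5 read 10.69 to 10.86 in control and 10.85 to 10.99 with miR-222. RefSeq lists a near-copy of Kat6a under the symbol Kat6al, so its reading may be shared.

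Among 17 lysine methyltransferase genes 3 rose and 14 did not pass. Ezh1, the Polycomb methyltransferase of resting and differentiated cells, read 9.29, 9.31, 9.28 and 9.38 log2 units in control and 9.69, 9.60, 9.83 and 9.59 with miR-222 (limma adjusted p = 0.00465). The highest value was in replicate 3, and without it the rise was 0.31 (limma adjusted p = 0.00507). Setd7, which methylates histone H3 and many other proteins, read 10.47, 10.34, 10.42 and 10.42 in control and 10.70, 10.78, 10.74 and 10.72 with miR-222 (limma adjusted p = 0.00161). Both calls held in all 16 alternatives. Ezh1 and Ezh2, alternative catalytic subunits of the same complex, thus had differences of opposite sign, of which that of Ezh1 passed. The pair was picked after its values were seen, and the contrast between them was not tested.

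Ehmt2 (G9a), a repressive methyltransferase of histone H3, read 9.10, 9.29, 9.23 and 9.07 log2 units in control and 9.41, 9.41, 9.56 and 9.32 with miR-222. Its rise of 0.25 (SE 0.07, limma adjusted p = 0.0386) was lost without any single array except control replicate 2 or miR-222 replicate 4 (limma adjusted p up to 0.103) and after median centring. Its partner Ehmt1 (GLP), with which it works as a dimer, gave -0.14 (SE 0.04, limma adjusted p = 0.0659) and did not pass, although the groups did not overlap. Of these genes, Ezh2, Kmt2e and Setd2 passed as lower with trend and robust options, and the same 3 and Ehmt1 without the dimmest probe sets. Ezh2, Kmt2e and Ehmt1 also passed with single-gene probe sets alone. Kmt2e passed as lower after median centring, with array weights and without control replicate 3 as well. Further members without overlap and with negative differences were Kmt2e at -0.18, Setd2, the enzyme that marks transcribed gene bodies, at -0.13, and Kmt2d, which marks enhancers, at -0.12. Setd3, known as an actin methyltransferase, gave 0.09, also without overlap and not past the threshold. Kmt5a, with the values given above, read 12.28 to 12.34 in control and 12.33 to 12.41 with miR-222. Setd4, Setd5, Setd6, Kmt5b and Kmt5c gave -0.09 to 0.09 with overlapping groups.

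Among 13 lysine demethylase genes 1 rose and 12 did not pass. Kdm8, a JmjC-domain protein, went from 9.22 to 9.36 log2 units in control to 9.42 to 9.60 with miR-222, a rise of 0.22 (SE 0.06, limma adjusted p = 0.0296) that was lost when any of 5 arrays was left out, namely control replicates 1 and 4 and miR-222 replicates 1, 3 and 4 (limma adjusted p up to 0.0836), and after median centring (limma adjusted p = 0.127). Larger differences belonged to Kdm3a at 0.30 (SE 0.11) and Kdm4b at 0.29 (SE 0.10), both enzymes of repressive methyl marks on histone H3, and neither passed (limma adjusted p = 0.101 and 0.0755). Kdm4b passed as higher under 3 alternatives, with limma adjusted p down to 0.0326, and Kdm3a under none of the 16. In both the spread lay in the miR-222 group. Kdm3a read 9.96, 10.29, 10.41 and 9.98 there against 9.78 to 9.96 in control, and Kdm4b 10.11, 9.90, 10.31 and 9.91 against 9.68 to 9.84. Replicate 3 was the highest array of each, and without it they stood at 0.21 and 0.21. The same array was highest for Kdm5b at 10.82, the other arrays of the group reading 10.49 to 10.56, and for Kdm2a at 10.50 against 10.25 to 10.34. Without that array Kdm5b stood at 0.14 (limma adjusted p = 0.0521, against 0.0860 with all arrays). Kdm2a stood at 0.12 without it (limma adjusted p = 0.161, against 0.107). The groups did not overlap in either gene. Neither gene passed, although Kdm5b did under 2 alternatives and Kdm2a under 1, in each case as higher. Kdm1a (LSD1) gave 0.10 (SE 0.04) without overlap and did not pass. Kdm6b, which removes the Polycomb mark, read 10.66 to 10.72 in control and 10.65 to 10.93 with miR-222, at 0.07 (SE 0.06). Kdm1b, Kdm2b, Kdm4a, Kdm4c, Kdm4d and Kdm5a gave -0.05 to 0.06.

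All 6 arginine methyltransferase genes with a Prmt symbol had negative differences, from -0.34 to -0.0024, and 2 of them fell. Carm1, an arginine methyltransferase gene under another symbol, gave 0.07 (SE 0.04) and did not pass. Prmt5, the main enzyme of symmetric arginine methylation, with roles in splicing and gene silencing, read 10.55, 10.52, 10.51 and 10.55 log2 units in control and 10.24, 10.17, 10.27 and 10.16 with miR-222, and fell by 0.32 (SE 0.04, limma adjusted p = 0.00150). Prmt2 read 8.40, 8.22, 8.37 and 8.35 in control and 8.09, 8.01, 7.88 and 7.99 with miR-222, and fell by 0.34 (SE 0.06, limma adjusted p = 0.00603). Their groups did not overlap and both calls held in all 16 alternatives. Prmt1, which makes most asymmetric dimethylarginine, read 11.01 to 11.06 in control and 10.91 to 11.10 with miR-222 and gave -0.03 (SE 0.05). Its second probe set gave -0.02. Prmt3, Prmt6 and Prmt7 gave 0.00, -0.02 and -0.05, and the signs of Prmt1, Prmt3 and Prmt6 turned when some single arrays were left out.

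**Figure D3:**
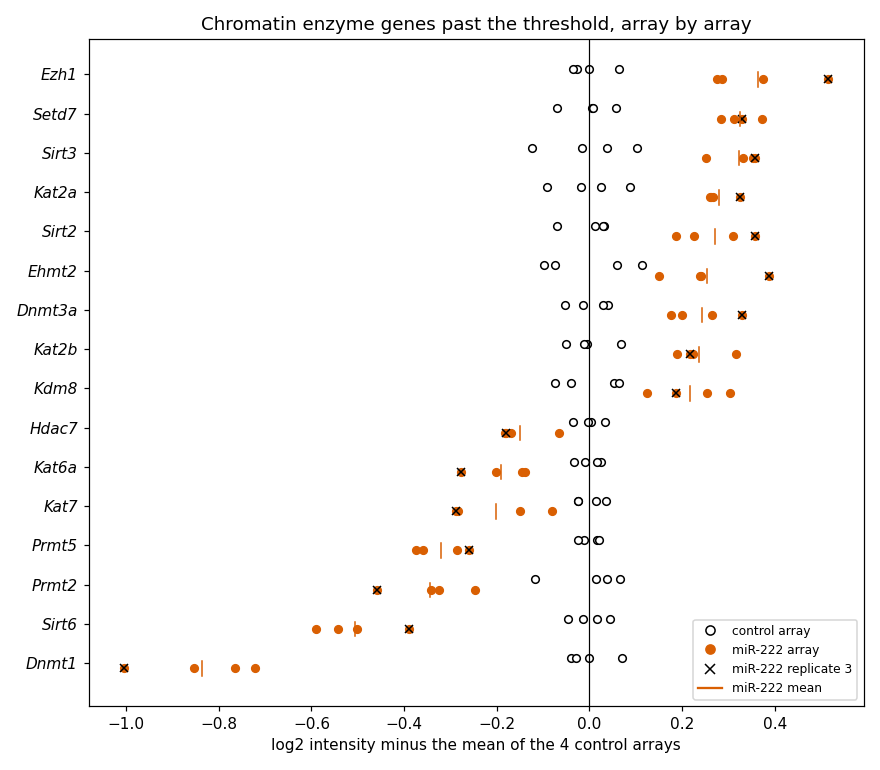
Log2 intensity of each array minus the control mean for the 16 members past the threshold (open circles, control arrays; filled circles, miR-222 arrays; crosses, miR-222 replicate 3; short lines, miR-222 means). In all 16 genes the groups lie apart, most narrowly in Hdac7 and Ehmt2, and replicate 3 is the highest miR-222 array in 6 of the 9 rises and the lowest in 4 of the 7 falls.

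The non-enzymatic partners of these proteins, and enzymes under other symbols, were read from 5 lists. Polycomb partners went both ways, with 5 of 26 measured genes higher and 5 lower and a median of 0.04. Pcgf5, a subunit that defines a form of the first Polycomb complex, fell by 0.37 (limma adjusted p = 9.87e-04), Phc1 by 0.28 and Rbbp7 by 0.16, whereas Pcgf6 rose by 0.39, Pcgf1 by 0.22 and the chromobox gene Cbx6 by 0.39. The 5 higher genes became 3 when control replicate 1, control replicate 2, control replicate 4 or miR-222 replicate 1 was left out, and 2 after median centring. Eed, a core subunit gene of the complex of Ezh1 and Ezh2, gave -0.01 (SE 0.08) and did not pass.

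Of 21 measured genes of the deacetylase complexes 4 fell and 2 rose. Tbl1x, a subunit of the NCoR complexes that contain Hdac3, fell by 0.58 (SE 0.05, limma adjusted p = 1.61e-04), from 11.28 to 11.34 log2 units in control to 10.66 to 10.81 with miR-222. Zmym2 fell by 0.33 and Mier1 by 0.47, and the NuRD helicase gene Chd3 rose by 0.34, as did Ing1 by 0.17. The 2 higher genes were 1 without any single array. In the list of acetyltransferases under other symbols and their complexes 8 of 28 fell and 1 rose, with 8 lower genes when any array was left out. Tada2b, an adaptor of the SAGA complex that holds Kat2a or Kat2b, fell by 0.40 (SE 0.04, limma adjusted p = 3.91e-04), Yeats4 by 0.55 and Msl1 by 0.43. Hat1, which acetylates new histones and was chosen after its values were seen, fell by 0.53. The coactivator gene Ncoa3 was the 1 that rose, by 0.27, a count of 0 without control replicate 1, 2 or 4 and of 2 without miR-222 replicate 3.

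Of 26 measured methyltransferases under other symbols and COMPASS partners 5 fell and 2 rose. Smyd4 fell by 0.48 (SE 0.05, limma adjusted p = 5.41e-04), Mllt3 by 0.35 and Hcfc1 by 0.21, and Men1 and the muscle methyltransferase gene Smyd1 rose by 0.20 and 0.16. The 5 lower genes became 3 when miR-222 replicate 1 or any one of the control arrays was left out, and the 2 higher genes were 0 without control replicate 1. The list of demethylases under other symbols, DNA methylation readers and heterochromatin proteins had the most calls of the 5, 11 of 21 lower and 2 higher, with a median of -0.19 and 10 to 12 lower genes when any array was left out, and 1 higher gene without control replicate 1, 3 or 4. The demethylase gene Phf2 fell by 0.41 (SE 0.04, limma adjusted p = 3.02e-04), Gadd45a by 0.44 and Zfp57, which guards imprinted regions, by 0.45, while Hspbap1 and Zbtb33 rose by 0.38 and 0.17. The heterochromatin protein gene Cbx5, chosen here after its values were seen, fell by 0.46. Called shares were 61.9% in this list, 38.5% in Polycomb partners, 28.6% in deacetylase complexes, 32.1% in acetyltransferase complexes and 26.9% in the remaining list, against 24.7% of all genes. These lists and that of DNA replication genes were chosen with earlier results of these data known, which limits the comparison with all genes.

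**Figure D4:**
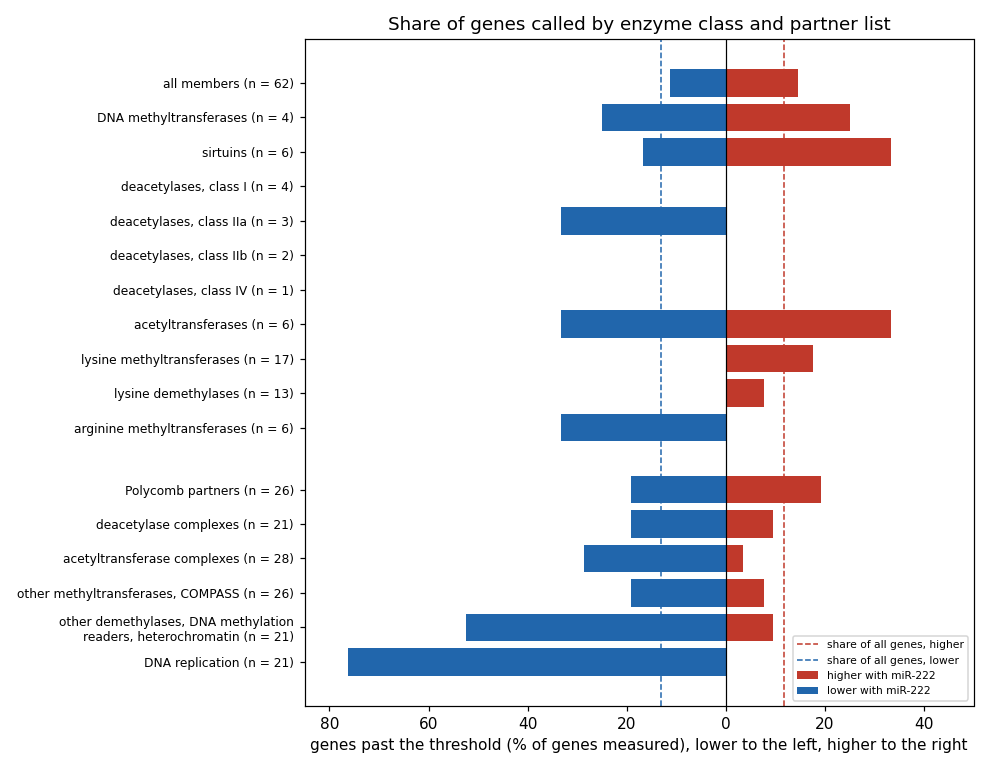
Share of measured genes past the threshold in each enzyme class, in 5 partner lists and among DNA replication genes, higher to the right in red and lower to the left in blue, with the shares of all genes (11.7% higher, 13.0% lower) as dashed lines. The members as a whole lie close to both lines, while 76.2% of the 21 replication genes were lower.

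Markers of other cell types were read beside these values. Among 8 fibroblast markers 2 fell (Lum and Postn), with a summed intensity of 8839 to 9817 in control and 7680 to 8787 with miR-222, and of 7812 to 8473 and 6943 to 7910 without these 2 genes. This count was 1 when control replicate 2, 3 or 4 or miR-222 replicate 1 was left out, and 3 without miR-222 replicate 3. Among 6 smooth muscle markers 1 fell (Tagln), with sums of 15736 to 16132 against 12310 to 14914, and of 13338 to 13662 against 11129 to 13474 without it. Of 7 macrophage markers 1 rose (C1qa, a call lost without any single array except control replicate 3 or 4), with sums of 778 to 800 against 804 to 863, and the 2 erythroid and 2 Schwann markers measured did not pass. No marker was at 0, but the 7 macrophage markers read 5.42 to 7.60 log2 units, below the array medians of 7.66 to 7.77. Lum also lay below these medians in the miR-222 arrays, at 6.90 to 7.37, where a difference is less reliable. The part of these cell types in the enzyme values was not tested.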

How the data were processed

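RNA of 8 samples was read on Affymetrix arrays after biotin labelling, per the labels. The deposited table gave probe set intensities on a linear scale, already processed by the authors, and how was not given in the sources used here. Its identifiers pair with the annotation of a rat gene array other than the one that the series text names. Of 29170 probe sets 15310 paired with 1 gene, 323 with several and 13537 with none. Values were taken as log2 with no pseudocount. All probe sets were compared between groups by the lmFit and eBayes functions of limma 3.58.1 under R 4.3.3, 2-sided, with Benjamini-Hochberg adjustment over all probe sets and a threshold of 0.05, and the fit was tested on simulated data. The symbol rule found 65 probe sets of 62 genes, 3 genes having 2. Of 87 RefSeq symbols that fit it, 25, such as Hdac9, Sirt1, Tet1, Tet2, Tet3, Kmt2a and Kdm6a, were not analysed here. Of the 62 symbols, 61 gene identifiers were found in the current RefSeq table and 0 had changed.

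Values are given for every member past the threshold, array by array for the 8 largest rises and the falls, and for the brightest other member of each class; further members were singled out after their values were seen. Of each partner list up to 3 genes with the smallest p in each direction are named. The members and lists were chosen with earlier results of these data known. Alternatives were quantile normalization, median centring, a pseudocount of 16, leaving out the dimmest 40% of probe sets, single-gene probe sets alone, trend and robust options, array weights, the mean of a gene's probe sets, and leaving out each array. Figures were drawn with matplotlib 3.10.9.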

Additional observations from a re-analysis of the deposited data

Results flagged for a closer look

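Dixon's test at its usual critical value asks whether 1 array of 4 lies far from the other 3. It was applied to 124 groups of 4 arrays and pointed to 6, about the 1 in 20 that chance gives. In the control group Hdac8 read 8.13 log2 units in replicate 3 against 7.86 to 7.91 in the others, and Setd3 read 10.59 in replicate 2 against 10.66 to 10.67. In the miR-222 group Hdac7 read 7.91 in replicate 4 against 7.79 to 7.81, and Ehmt1 read 9.21 in replicate 1 against 9.28 to 9.29. Replicate 3 of that group gave the other 2, Kat2a at 9.16 against 9.09 to 9.10 and Suv39h1 at 9.04 against 9.39 to 9.45.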

How the results depend on the processing

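The 16 alternatives gave 990 values for single members, of which 887 kept their direction and side of the threshold. In 36 a call was lost, in 30 a member crossed the threshold and in 37 the sign turned, 0 of these in a member past the threshold. The 9 higher members were 14 with trend and robust options and 7 to 9 when 1 array was left out, and the 7 lower members were 11 without the dimmest 40% of probe sets and 4 to 7 when 1 array was left out. With trend and robust options 37.1% of members and 28.9% of all genes were called. Without the dimmest probe sets 40% of 60 members and 42.6% of 9983 genes were called. The members' median was 0.0051 after median centring, where that over all genes was -0.013. Sign changes lay among values no larger than 0.067. Quantile normalization gave 0.015 for Prmt3, 0.013 for Hdac5, 0.014 for Kdm4a, 0.017 for Setd5 and -0.023 for Hdac10. Median centring gave -0.015 for Hdac10, -0.00307 for Kdm4c and -0.015 for Sirt5. Array weights gave 0.018 for Prmt3, -0.025 for Hdac10, 0.030 for Suv39h1 and -0.013 for Sirt5. With 1 array left out the ranges were -0.045 to 0.048 for Prmt3, -0.049 to 0.0099 for Prmt6, -0.061 to 0.0043 for Prmt1, -0.035 to 0.017 for Hdac5, -0.026 to 0.043 for Hdac10, -0.00092 to 0.097 for Dnmt3l, -0.0070 to 0.055 for Kdm2b, -0.016 to 0.051 for Kdm4c, -0.019 to 0.00073 for Kdm4a, -0.030 to 0.020 for Setd5, -0.068 to 0.067 for Suv39h1 and -0.019 to 0.025 for Sirt5. The cause was not tested. No paired analysis was possible because the labels give no replicate numbers, and those used here only name arrays in deposited order. Dim probe sets such as those of Dnmt3l and Kdm4d limit what a difference near background can show.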
